A study of Homo sapiens with 4 samples.

Results

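COP1 is an E3 ubiquitin ligase, and the genes described here are COP1 itself, the parts of the CUL4 ligase it can work through (DET1, DDB1, CUL4A, CUL4B, RBX1 and DDA1) and the Tribbles adaptors TRIB1, TRIB2 and TRIB3. These 10 genes were chosen by name, with earlier results of these data known. They were found by their NCBI Gene numbers among the 46427 genes of the series. The cells were Huh7 and HepG2, established lines grown from human liver tumours and labelled as hepatocellular carcinoma. Each line was transfected for 5 h with siRNA at 20 nM, either the negative control (NC-siRNA, genotype WT) or one against COP1 (COP1-siRNA, genotype COP1 Knockdown), and was harvested 48 h later. Apart from the siRNA, both arms had the same culture medium and transfection reagent, and all libraries carry the same batch label. The series holds 4 RNA libraries, 1 for each siRNA in each line. Differences below therefore come without replicates and without p-values.

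A cullin ligase of the CUL4 type is assembled on the scaffold CUL4A or CUL4B, which binds the RING protein RBX1 at one end and DDB1 at the other. DDB1 carries a substrate receptor, and DET1 can join COP1 to DDB1, with the small protein DDA1 as a further DDB1 partner. Tribbles proteins are pseudokinases that hold a substrate with one part and COP1 with their C-terminal tail. TRIB1 and TRIB2 bring the liver transcription factor C/EBPα to COP1 for degradation, and TRIB3 has been linked to COP1 and the lipogenic enzyme acetyl-CoA carboxylase. These are protein-level functions, while the values below are RNA levels.

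Levels are given as TPM, a transcript abundance that is scaled for transcript length and sums to 1000000 in each library. The log2 fold change is log2(TPM + 1) under COP1-siRNA minus log2(TPM + 1) under NC-siRNA, and it understates the change of genes with low TPM. The study called genes past 2-fold that also passed a p-value cut, which cannot be recomputed from 1 library per condition. Here a gene was tested, that is compared with the 2-fold threshold alone, if either library compared reached a TPM of 1. This held for 13000 genes in Huh7 and 14456 in HepG2, with median log2 fold changes of −0.00083 and −0.0080. The files hold no read counts, so the depth is known only in relative terms. Coverage per unit of FPKM put the depth of the COP1-siRNA library at 1.13 times that of its control for Huh7 and 1.27 times for HepG2. All 8 hepatocyte-lineage markers listed, among them ALB, AFP and HNF4A, were above 1 TPM in every library. Of 8 markers of other cell types, PTPRC and DCN were at 0 in all libraries, while LYZ was at 119 to 192 TPM and CD68 at 15.6 to 58.2 TPM. PECAM1 was at 5.08 and 7.36 TPM in Huh7 and COL1A1 at 2.33 and 2.47 TPM in HepG2, each below 1 TPM in the other line. VWF and COL1A2 were below 1 TPM in every library.

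Of the 10 genes, 8 passed the minimum TPM in Huh7 and all 10 in HepG2. The 2 left out in Huh7 were DET1 and TRIB2. Their upstream sequences (250 bases before the start site, RefSeq, GRCh38.p14) are shown because these were the genes with almost no RNA in one line, with each CG dinucleotide in capitals. The DET1 sequence is on the minus strand of chromosome 15 at chr15:88546704-88546953, and that of TRIB2 on the plus strand of chromosome 2 at chr2:12716686-12716935. The TRIB2 sequence precedes a RefSeq start at 12716936. In the files the gene begins at 12716872, so the end of the sequence lies inside that span.
DET1: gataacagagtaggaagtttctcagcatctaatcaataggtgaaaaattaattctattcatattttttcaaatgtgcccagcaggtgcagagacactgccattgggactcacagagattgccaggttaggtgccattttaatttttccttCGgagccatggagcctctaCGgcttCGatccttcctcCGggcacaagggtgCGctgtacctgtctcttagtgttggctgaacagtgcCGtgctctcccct
TRIB2: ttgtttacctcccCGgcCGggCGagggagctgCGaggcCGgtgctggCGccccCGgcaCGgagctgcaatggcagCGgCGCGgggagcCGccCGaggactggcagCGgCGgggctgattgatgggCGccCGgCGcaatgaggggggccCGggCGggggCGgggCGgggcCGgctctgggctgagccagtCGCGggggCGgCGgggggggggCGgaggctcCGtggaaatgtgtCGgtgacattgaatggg
The TRIB2 sequence held 30 CG dinucleotides and 76.8% G and C. The DET1 sequence, at the outermost of 3 annotated starts, held 6 CG and 47.2% G and C, and that at the innermost start held 15 CG and 69.6% G and C. The median over 35116 annotated windows was 11 CG and 58% G and C. DET1 thus lay below or above these medians depending on the start used, and TRIB2 lay above them. Among genes with RNA in both lines, RBX1 held the same 30 CG and 76.8% G and C as TRIB2. The annotated starts of CUL4B held 4 to 15 CG. A link between these values and the RNA levels was not tested. Methylation was not measured.

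The targeted gene came first as a check of the labels. Coordinates are those of the files, on GRCh38. COP1 (gene 64326, chromosome 1, 175944826 to 176209087, minus strand) measured 19.7 TPM under NC-siRNA and 6.18 TPM under COP1-siRNA in Huh7, and 26.9 and 16.1 TPM in HepG2. COP1 RNA was lower with COP1-siRNA in both lines, to 31.4% of control in Huh7 and 59.9% in HepG2. The log2 fold change was −1.53 in Huh7, where 7 of the 13000 tested genes, COP1 included, were at or below it. In HepG2 the value was −0.71, under the 2-fold threshold, and COP1 ranked 157th from the lowest of 14456 genes. The study lists COP1 among genes changed at least 2-fold in both lines, which its HepG2 TPM did not reach here. In both lines together, 6 of 11970 genes, COP1 included, had values as low as COP1 or lower. The knockdown differed by 0.82 on the log2 scale between the lines, a difference that could not be tested.

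The TPM and the coverage of COP1 differed in scale, and isoform lengths were not examined. Depth-scaled coverage, which averages reads over the whole gene model, was 0.146 to 0.154 of its TPM in the 4 libraries, against 1.00 for DDB1 and RBX1. The ratio was 0.268 to 0.269 for TRIB3, 0.222 to 0.311 for CUL4A and 0.715 to 0.735 for TRIB1. Within a line, the ratio of COP1 and of TRIB3 was nearly the same with both siRNAs. Comparisons of level between the 10 genes depend on this ratio.

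**Figure D1:**
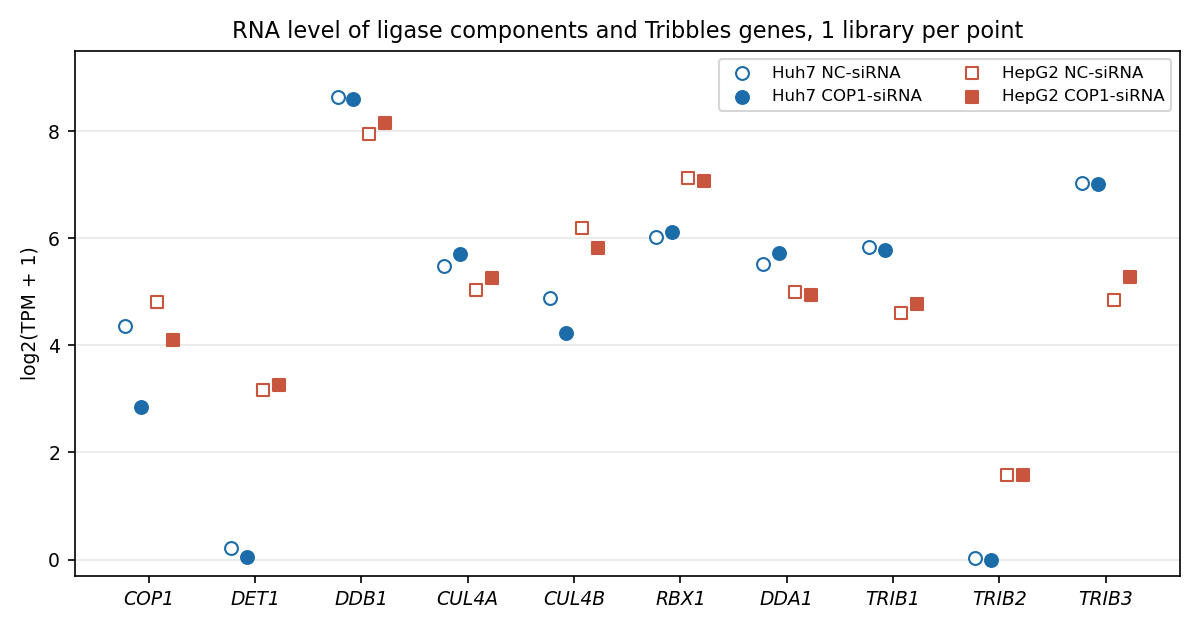
Level of each of the 10 genes as log2(TPM + 1), with 1 point per library. Circles are Huh7 and squares HepG2, open for NC-siRNA and filled for COP1-siRNA. DDB1 is the highest in every library, DET1 and TRIB2 lie near 0 in Huh7 only, and COP1 is the gene with the widest gap between open and filled points in each line.

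Among the scaffold genes, the 2 CUL4 paralogs differed in direction, without passing 2-fold. CUL4B (gene 8450, chromosome X, 120523858 to 120575829, minus strand) measured 28.6 TPM under NC-siRNA and 17.8 TPM under COP1-siRNA in Huh7, and 71.7 and 55.4 TPM in HepG2. CUL4B was thus lower with COP1-siRNA in each line. The log2 fold changes of −0.66 and −0.37 did not pass 2-fold. In Huh7, 1.81% of tested genes were at or below that value, and in HepG2 6.65%. In both lines together, 107 genes, CUL4B included, were at or below its values, 0.894% of those tested in both.

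CUL4A (gene 8451, chromosome 13, 113208193 to 113267108, plus strand) measured 43.6 TPM under NC-siRNA and 51.2 TPM under COP1-siRNA in Huh7, and 31.7 and 37.3 TPM in HepG2. The log2 fold change was 0.23 in both lines, and 465 genes, CUL4A included (3.88% of those tested in both), were at or above it in both. From coverage the changes of CUL4A were smaller, 0.13 in Huh7 and 0.08 in HepG2, as its ratio of scaled coverage to TPM was 0.311 and 0.294 in the Huh7 libraries and 0.244 and 0.222 in those of HepG2. CUL4A overlaps PCID2 by 1275 bases on the other strand. The library kit keeps strand, and whether the counting used it is not given in the sources used here.

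The make-up of the CUL4 pool by TPM differed between the siRNAs. CUL4B made up 39.6% of the summed CUL4A and CUL4B TPM in Huh7 with NC-siRNA and 25.8% with COP1-siRNA. For HepG2 the shares were 69.3% and 59.8%. The sum itself was 72.2 and 69.0 TPM in Huh7, and 103 and 92.7 TPM in HepG2. By TPM CUL4A was the higher scaffold in Huh7 and CUL4B in HepG2, but the Huh7 order depended on the measure. By coverage CUL4B led in Huh7 with NC-siRNA, with 64.2 against 36.3 reads per base, and the paralogs were level with COP1-siRNA, at 47.4 and 47.5. The coverage share of CUL4B was 63.9% and 49.96% in Huh7 and 88.3% and 84.8% in HepG2, so that it was lower with COP1-siRNA by either measure.

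**Figure D2:**
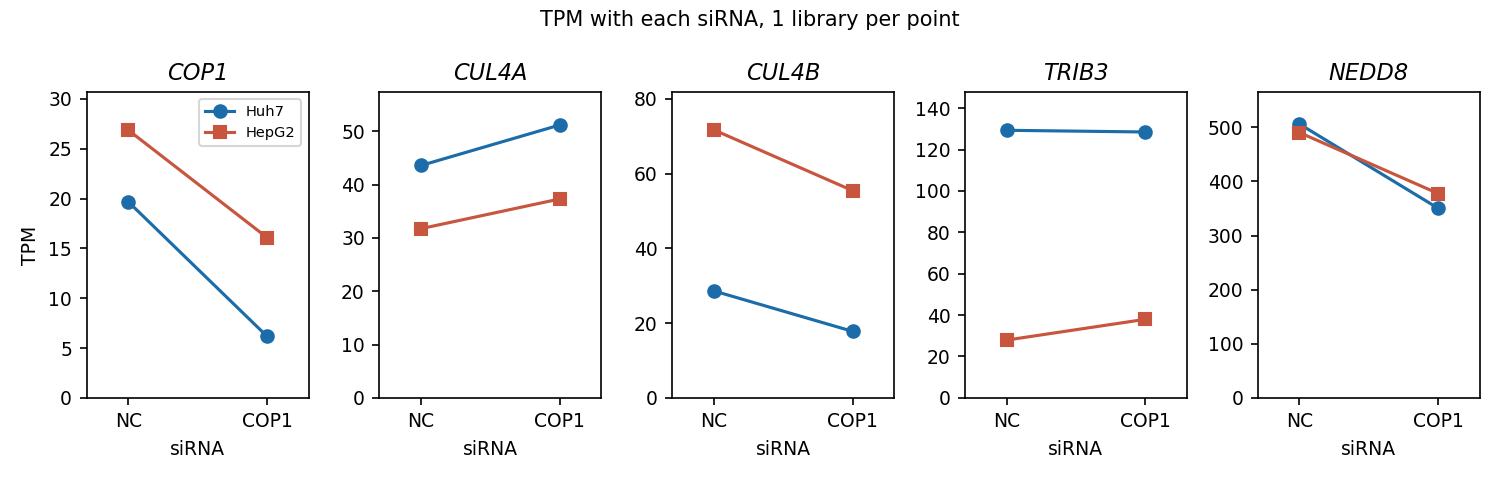
TPM with NC-siRNA and COP1-siRNA in Huh7 (circles) and HepG2 (squares), 1 library per point, each panel with its own axis from 0. COP1, CUL4B and NEDD8 are lower with COP1-siRNA in both lines, CUL4A is higher in both, and TRIB3 is higher in HepG2 only, by 1.36-fold, while it is at 129 TPM with both siRNAs in Huh7.

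DDB1, the adaptor that all CUL4 receptors share, was the most abundant of the 10 in TPM. DDB1 (gene 1642, chromosome 11, 61299451 to 61333105, minus strand) was at 398 and 389 TPM in Huh7 with NC-siRNA and COP1-siRNA, and at 245 and 285 TPM in HepG2. The log2 fold changes were −0.03 and 0.22, and that of Huh7 turned positive with FPKM or upper-quartile scaling. DDB1 TPM was 5.51 and 5.64 times the CUL4 sum in Huh7, and 2.37 and 3.07 times in HepG2. By coverage the ratios were 10.6 and 13.0 for Huh7, and 3.71 and 5.22 for HepG2.

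RBX1, which recruits the ubiquitin-conjugating enzyme, and DDA1 moved little. RBX1 (gene 9978, chromosome 22, 40951378 to 40973309, plus strand) was at 63.7 and 68.1 TPM in Huh7 and at 139 and 134 TPM in HepG2. The log2 fold changes were 0.09 and −0.05. DDA1 (gene 79016, chromosome 19, 17309563 to 17323301, plus strand) was at 45.1 and 51.8 TPM in Huh7 and at 30.7 and 29.7 TPM in HepG2, with 0.19 and −0.05. Both HepG2 values turned positive with upper-quartile scaling.

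DET1 (gene 55070, chromosome 15, 88501919 to 88546703, minus strand) was at 0.156 and 0.0370 TPM in Huh7, with a mean coverage of 0.387 and 0.108 reads per base, too low for a fold change. The HepG2 libraries had 7.98 and 8.63 TPM, a log2 fold change of 0.10. Every HepG2 library was far above both Huh7 libraries. RNA of this link between COP1 and DDB1 was thus close to the detection limit in one of the lines, with either siRNA.

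RBX1 was the only one of the 10 genes whose longest annotated 3′ UTR held the 7-base sequence AGCAGTC. This sequence was chosen after values of these data were seen. Its copies in transcript ENST00000216225.8 (GENCODE 29, GRCh38, plus strand) are printed with 11 bases on each side and the 7 bases in capitals, the first at chr22:40972860-40972866 and the second at chr22:40973126-40973132.
RBX1 first copy: ctcccgaaaacAGCAGTCagcccttcttt
RBX1 second copy: ttgtgtatgacAGCAGTCcccaacctttt
The sequence was present in 10.8% of tested genes with a 3′ UTR in Huh7 and 10.9% in HepG2. These genes had a median log2 fold change of −0.11 in Huh7 and −0.07 in HepG2, against 0.0023 and −0.0029 for genes without it. As the sequence was chosen with these data seen, the medians are descriptive only and do not count as support. The length of the 3′ UTR was not matched between the groups, and no relation of the sequence to either siRNA is implied. An effect of the sequence was not tested. RBX1, with 2 copies, stood above both medians in Huh7 (0.09) and between them in HepG2 (−0.05), and the 3′ UTRs of CUL4B (2152 bases) and COP1 (322 bases) held none.

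No Tribbles gene passed 2-fold in either line. TRIB3 (gene 57761, chromosome 20, 380629 to 397559, plus strand), also a target of the stress factors ATF4 and CHOP, was at 129 TPM in both Huh7 libraries, 129.3 with NC-siRNA and 128.5 with COP1-siRNA. The HepG2 libraries had 27.9 and 37.95 TPM. The log2 fold change was −0.01 in Huh7, positive with FPKM or upper-quartile scaling, and 0.43 in HepG2, where 5.06% of tested genes were at or above it. The HepG2 value was the highest of the 10 genes in either line and did not pass 2-fold. In the same HepG2 comparison all 8 hepatocyte-lineage markers had positive values from 0.08 to 0.44. At least 1.25-fold higher were 5 of the 8, against 8.27% of all tested genes. The summed TPM of the 8 markers was 3379 with NC-siRNA and 3901 with COP1-siRNA. In Huh7 that sum was 20530 and 17850 TPM. Whether this has a part in the TRIB3 value was not tested.

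TRIB1 (gene 10221, chromosome 8, 125430290 to 125438405, plus strand) was at 56.1 and 54.2 TPM in Huh7 and at 23.4 and 26.5 TPM in HepG2. The corresponding changes were −0.05 and 0.17, and the first turned positive with FPKM or upper-quartile scaling. TRIB2 (gene 28951, chromosome 2, 12716872 to 12742734, plus strand) was at 0.0171 TPM in Huh7 with NC-siRNA and is listed at 0 with COP1-siRNA. The HepG2 libraries had 1.997 and 2.006 TPM. Of the 3 adaptors, only TRIB1 and TRIB3 thus had RNA in amounts that could be compared in both lines. TRIB3 made up 69.8% and 70.4% of their summed TPM in Huh7 and 52.4% and 57.1% in HepG2. By coverage the order turned, with TRIB1 above TRIB3 in every library and TRIB3 at 46.2% and 47.0% of the sum in Huh7 and 28.1% and 32.3% in HepG2.

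The summed Tribbles TPM was 185 and 183 in Huh7 and 53.3 and 66.4 in HepG2. Set against COP1, the sum was 9.42 times the COP1 TPM in Huh7 with NC-siRNA and 29.6 times with COP1-siRNA. The HepG2 ratios were 1.98 and 4.13. By coverage they were 24.9 and 77.7 for Huh7, and 6.80 and 13.1 for HepG2. Taken as a fold, the lines with NC-siRNA thus already differed more in this ratio than COP1-siRNA changed it in either line. Taken as a plain difference, the change with COP1-siRNA in Huh7 was the larger.

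Counted together, 1 of 8 tested genes of the set was at least 2-fold lower in Huh7, namely COP1, against 0.446% of all tested genes. None was at least 2-fold higher, against 0.638%, and in either direction the background was 1.08%. In HepG2, 0 of 10 were past 2-fold, against 0.394% lower, 0.54% higher and 0.934% either way. At 1.5-fold, 2 of 8 were lower in Huh7 (COP1 and CUL4B), against 2.68%, and 1 of 10 in HepG2 (COP1), against 1.87%. At least 1.25-fold higher were 0 of 8 in Huh7, against 9.65%, and 1 of 10 in HepG2 (TRIB3), against 8.27%. A change of less than 1.25-fold was seen for 6 of 8 in Huh7, against 80.1% of all genes, and for 7 of 10 in HepG2, against 83% of all genes. The median log2 fold change of the set was −0.02 in Huh7 and 0.05 in HepG2. Apart from the targeted gene the genes beyond 1.25-fold were CUL4B in both lines and TRIB3 in HepG2.

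**Figure D3:**
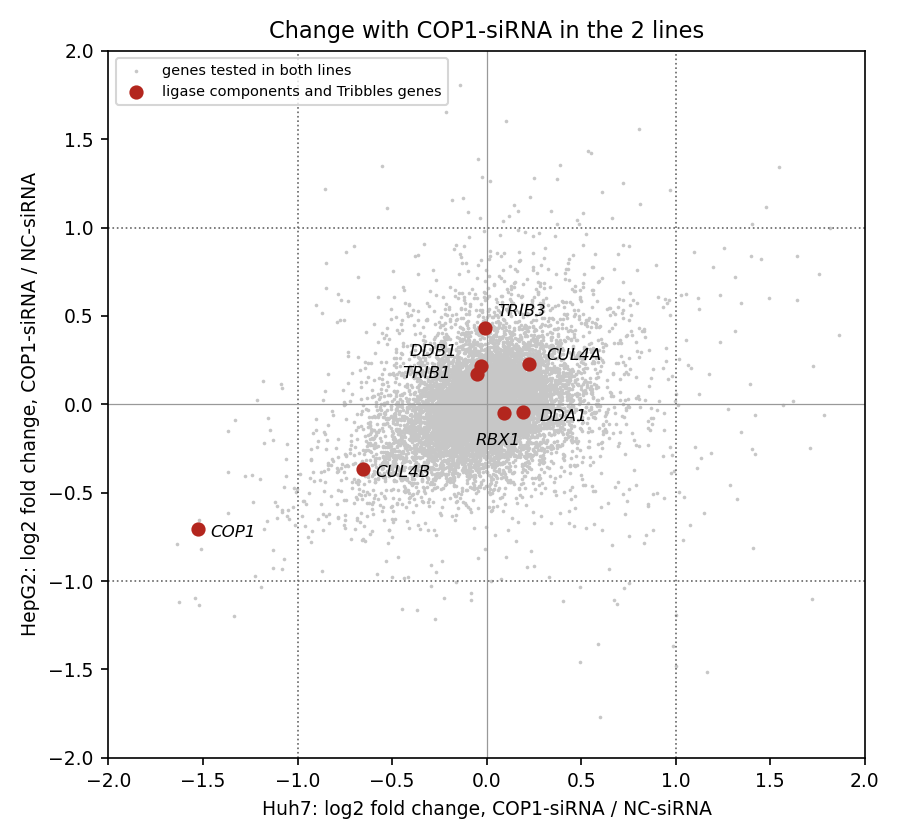
Log2 fold change with COP1-siRNA in Huh7 (x axis) and HepG2 (y axis). Grey points are the 11970 genes tested in both lines, red points the 8 genes of the set tested in both, and dotted lines mark 2-fold. The axes end at 2, with 7 genes outside. COP1 lies at the lower left edge, CUL4B toward the same corner, and the others within the cloud.

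The lines themselves differed more than the siRNAs did. With NC-siRNA, 6 of the 10 genes differed by at least 2-fold between HepG2 and Huh7, against 42.6% of 15055 tested genes. DET1, CUL4B, RBX1 and TRIB2 were higher in HepG2, and TRIB1 and TRIB3 were higher in Huh7. TRIB3 was 4.63 times and TRIB1 2.40 times as high in Huh7 by TPM, while CUL4B was 2.51 times and RBX1 2.18 times as high in HepG2. With COP1-siRNA the number was again 6, against 40.1% of all genes, with COP1 now included at 2.60 times the Huh7 TPM and RBX1 just under the threshold at 1.97 times. In the bulk RNA of a line, fewer cells with a transcript and less of it per cell cannot be told apart.

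The patterns most like that of COP1 were sought over the 4 libraries by the root mean square distance between centred log2(TPM + 1) values, among 10406 protein-coding genes. The nearest were MRPL18, a mitochondrial ribosomal protein gene (distance 0.092), TIMM23 (0.16), IGFBP1 (0.17), TMEM208 (0.17) and SERF1A (0.22). MRPL18 had log2 fold changes of −1.51 and −0.82 and IGFBP1, a secreted binding protein of insulin-like growth factors, −1.198 and −0.43. TIMM23 and SERF1A have near-identical copies in the genome, so their values are uncertain. The genes nearest to TRIB3 were ERBB3, GPR35, ABHD4, SNAI1 and FAM114A1, at distances of 0.027 to 0.048. Those nearest to TRIB1 were SDF2, ZBTB38, ITM2C, EHD4 and TOM1, at 0.021 to 0.026.

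DDB1 also binds other substrate receptors, and 23 of these were listed. None of the 22 tested in Huh7 or the 23 tested in HepG2 passed 2-fold, and their medians were −0.01 and −0.05. The highest value was that of DCAF4 in both lines, 0.37 and 0.16, and the lowest were WDTC1 in Huh7 (−0.28) and PHIP in HepG2 (−0.24). BRWD3 was at 0 TPM in both Huh7 libraries and at 7.74 and 7.36 TPM in HepG2 (named after its values were seen). Among 25 receptors including COP1 and DET1, COP1 held 3.22% of the summed TPM in Huh7 with NC-siRNA and 1.03% with COP1-siRNA, and moved from 11th to 22nd place. For HepG2 the shares were 3.55% and 2.20%, at 12th and 18th place. By coverage COP1 stood lower, at 0.717% and 0.226% in Huh7 (20th and 23rd place) and at 0.757% and 0.467% in HepG2 (22nd and 25th place).

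The machinery that cullins share also stayed under 2-fold. CUL1, CUL2, CUL3, CUL5, CUL7, CUL9 and RNF7, the paralog of RBX1, had a median of 0.02 in Huh7 and 0.04 in HepG2. CUL9 was the lowest in Huh7 (−0.29) and CUL1 in HepG2 (−0.15), while RNF7 in Huh7 (0.20) and CUL7 in HepG2 (0.33) were the highest. The 9 listed subunit genes of the COP9 signalosome, which removes NEDD8 from cullins, had medians of 0.00043 and −0.05. COPS7A and COPS7B, both listed, are paralogs. COPS6 was lowest in Huh7 (−0.27), COPS7A lowest in HepG2 (−0.31) and COPS8 highest in both (0.19 each). The 10 ubiquitin-conjugating enzymes had medians of −0.03 and −0.07. UBE2G1 was the lowest of them in both lines, −0.31 and −0.23. UBE2E2 was the highest in Huh7, at 0.502 and 1.32 TPM and thus close to the minimum, with a value of 0.63, and CDC34 in HepG2 with 0.04.

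NEDD8, the ubiquitin-like protein that activates cullins, was the lowest of the neddylation genes in both lines. It measured 506 TPM under NC-siRNA and 350 TPM under COP1-siRNA in Huh7, and 490 and 378 TPM in HepG2. The log2 fold changes were −0.53 and −0.38. In both lines 157 genes, NEDD8 included (1.31% of those tested in both), were at or below it. NEDD8 lies inside the read-through gene NEDD8-MDP1 on the same strand, and the summed TPM of both gave −0.51 and −0.37. The list as a whole had medians of −0.10 over 12 tested genes in Huh7 and −0.06 over 14 in HepG2, with the NEDD8 ligase cofactor gene DCUN1D3 highest in both, at 0.21 and 0.41.

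**Figure D4:**
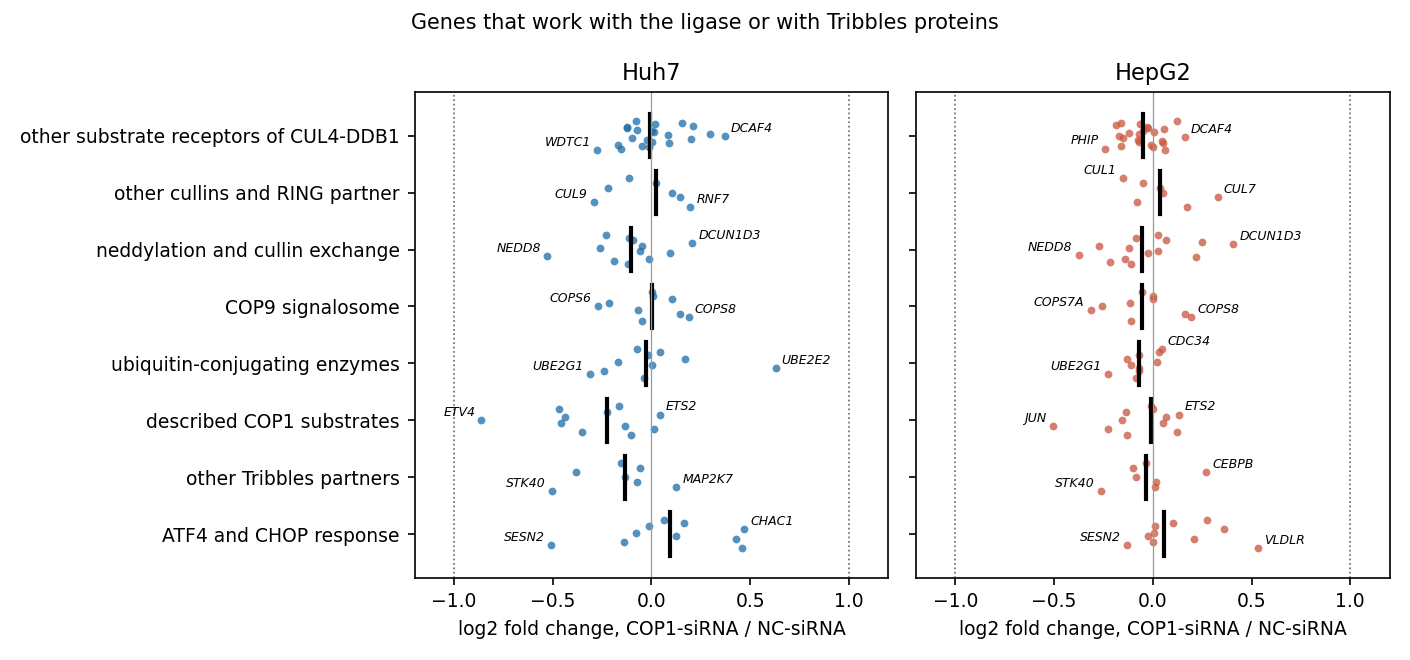
Log2 fold change with COP1-siRNA of each tested gene in 8 lists, Huh7 on the left and HepG2 on the right. Vertical bars are list medians, dotted lines mark 2-fold, and the lowest and highest gene of each list are named. No gene reaches 2-fold, and the list medians run from −0.23 to 0.09 on the left and from −0.07 to 0.06 on the right.

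Genes of proteins described as COP1 substrates were examined at the RNA level only. Of 11 tested in Huh7, 5 were at least 1.25-fold lower, against 10.3% of all genes, namely ETV1, ETV4, ETV5, CEBPA and PNPLA2, where ETV1 and PNPLA2 were named after their values were seen. In HepG2, 1 of 11 was, JUN, against 8.76%. The list was chosen with earlier results of these data known, so these shares are descriptive only. ETV4, an ETS transcription factor, was at 22.1 and 11.7 TPM in Huh7 and 15.0 and 13.4 TPM in HepG2, with −0.86 and −0.16. CEBPA, which encodes C/EBPα, was at 169 and 122 TPM in Huh7 and at 23.7 TPM in both HepG2 libraries. JUN, part of AP-1, was at 69.0 and 62.8 TPM in Huh7 and 143 and 100 TPM in HepG2, with −0.13 and −0.51. ETV5 had −0.46 in Huh7 and 0.05 in HepG2. The medians of the list were −0.23 and −0.01, with ETS2 the highest in both lines at 0.04 and 0.13.

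STK40, a Tribbles-related pseudokinase that also binds COP1, was at 77.7 and 54.4 TPM in Huh7 and at 35.9 and 29.8 TPM in HepG2. Its log2 fold changes of −0.51 and −0.26 were the lowest among 7 other Tribbles partners in each line, and the list medians were −0.13 and −0.03. The highest were MAP2K7 in Huh7 (0.12) and CEBPB in HepG2 (0.27).

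TRIB3 is induced by ATF4 and CHOP (DDIT3), and 10 genes of that response were set beside it. ATF4 was at 296 and 293 TPM in Huh7 and 865 and 872 TPM in HepG2, with −0.01 and 0.01, and DDIT3 had −0.08 and 0.01. ASNS, an amino acid synthesis gene, had 0.06 in Huh7 and 0.28 in HepG2. CHAC1 was the highest in Huh7 (0.47) and VLDLR in HepG2 (0.53), and SESN2 the lowest in both (−0.51 and −0.13). The medians of the list were 0.09 for Huh7 and 0.06 for HepG2. Between lines, TRIB3 and DDIT3 were higher in Huh7 with NC-siRNA, 129 against 27.9 TPM and 29.3 against 7.23 TPM, while ATF4 and ASNS (37.6 against 120 TPM) were higher in HepG2.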

How the data were processed

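Each library came with 1 gene table in which the authors deposited a coverage signal, an FPKM and a TPM value per NCBI Gene number. TPM is scaled by the authors to 1000000 per library, FPKM is proportional to it within a library, and coverage is not normalized for depth. The submitters' processing notes name Trimmomatic 0.38, HISAT2 2.1.0, StringTie 2.1.3b and GRCh38, and the annotation release is not given in the sources used here. Libraries were stranded and poly(A)-selected. The gene name column held placeholders only, so symbols were taken from RefSeq by number (44698 of 46427 matched), and values on repeated numbers were summed. TPM was used throughout, with 1 added before log2, a minimum TPM of 1 and a threshold of 2-fold, in Python 3.11.15 with pandas 2.3.3 and numpy 2.4.6. The fold-change calculation was also run on simulated data with large, known changes in genes of high TPM. That run checks the calculation only, and not the error of the values here. No test between conditions was run, since each has 1 library, and the lines were not used as replicates. The 10 genes and all gene lists were chosen with earlier results of these data known. Named were the 10 genes, STK40, JUN, ETV4, ETV5, CEBPA, ATF4, DDIT3, ASNS, the highest and lowest gene of each list, and the 5 nearest patterns of COP1, TRIB1 and TRIB3. Alternatives were other pseudocounts, columns, scalings, minimums and a 1.5-fold threshold. The siRNA sequences are not shown here.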

Additional observations from a re-analysis of the deposited data

Results flagged for a closer look

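The following genes had log2 fold changes of opposite sign in the 2 lines, each from 1 library per siRNA, and the difference was not tested. Given as the HepG2 value minus the Huh7 value, the difference was 0.44 for TRIB3, 0.25 for DDB1, 0.22 for TRIB1, −0.15 for RBX1 and −0.24 for DDA1. Outside the set, only genes chosen for naming and the extremes of the 8 lists were searched, for values of at least 0.005 in size. The difference was 0.65 for CEBPB, 0.51 for ETV5, 0.34 for WDTC1 and −0.70 for UBE2E2. It was 0.12 for CDC34, 0.087 for DDIT3 and 0.025 for ATF4. Other genes in the text, such as ETV1 (0.50), PNPLA2 (0.47) and HNF4A (0.50), also differed in sign. The Huh7 values of TRIB3, DDB1 and TRIB1 and the HepG2 values of RBX1 and DDA1 changed sign with upper-quartile scaling.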

How the results depend on the processing

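The number of genes of the set past the threshold was 2 in Huh7 and 1 in HepG2 at 1.5-fold in place of 2-fold, and the same as reported under the other settings. The share of COP1 left was 32.7% in Huh7 and 59.1% in HepG2 from FPKM, and 30.8% and 60.9% from coverage. The number of all tested genes past 2-fold, 141 in Huh7 and 135 in HepG2, was 390 and 372 with a pseudocount of 0.1, 411 and 407 with the plain TPM ratio, 57 and 39 with FPKM, 713 and 640 at 1.5-fold, and 76 and 55 with a minimum TPM of 5. Upper-quartile scaling shifted the median of all tested genes to 0.12 in Huh7 and 0.07 in HepG2 and gave 115 higher and 33 lower genes in Huh7, against 83 and 58 as reported. A minimum TPM of 5 gave 34 higher and 42 lower. Over 108 values of the set under these settings, 98 kept their sign and side of 2-fold, and 10 near 0 changed sign. In Huh7, COP1 ranged from −1.67 to −1.15 and CUL4B from −0.69 to −0.52. The HepG2 ranges were −0.74 to −0.57 for COP1, −0.38 to −0.28 for CUL4B and 0.40 to 0.52 for TRIB3. The COP1 values of −1.15 and −0.57 came from scaled coverage, where the 1 added weighs on low values. The shares of COP1 left from coverage, given above, have nothing added and do not show a weaker knockdown in Huh7. Of 80 list medians 14 changed sign and none reached 2-fold. The labels number no replicates. The lines form 2 pairs of libraries, and a fit with line as a term was not run. Shares and ratios between genes were also taken from coverage, chosen after seeing the data, and stand beside the TPM values. Without read counts, the error of single values is unknown, and it weighs most on DET1 and TRIB2.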
